A study of Mus musculus with 125 samples.

Results

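Mfsd2a, Cav1, Cav2, Tfrc, Insr and Lrp8, 6 genes of transport across the brain vessel wall, were followed in mouse endothelium. They were listed by name, with earlier results of these data known, and were read in 2 ways. The first was open chromatin, as ATAC-seq peaks that overlap each gene or lie within 50 kb of it, which gave 251 of the 514065 regions obtained by merging the peaks of all 66 libraries. The second was the transcript counts of the 6 genes, of 27998 in the gene table, in endothelial barcodes of 5 single-cell libraries of brain. A barcode was taken as endothelial when it had at least 200 genes, at most 10% mitochondrial transcripts and at least 3 of the pan-endothelial genes Cdh5, Pecam1, Egfl7, Esam, Tie1 and Kdr.

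The 37 endothelial ATAC-seq libraries came from GFP-marked vessels of adult mice (2 months; 12 libraries), of pups labelled P6 (14) and of E12.5 embryos (11), and the 29 input libraries from all nuclei of the same tissues (10, 16 and 3). Tamoxifen, which switched the reporter on, had been given in every ATAC-seq group, endothelial and input alike. The embryos received it at E10.5, the pups at P1 and P3, and the adults 7 days before isolation. The promoter that drives the reporter is not given in the sources used here, and the protocol places the pups' collection at P7. Adult and P6 libraries cover brain, retina, heart, kidney, liver and lung, with 2 or 3 endothelial libraries each, and E12 libraries cover brain (3), heart (4) and trunk (4). The single-cell libraries, 1 per age, were whole brain at E9.5, E12.5 and E16.5, dissociated with collagenase, and cortex at P8 and adult, dissociated with a neural tissue kit, all enriched with anti-CD31 beads. Age therefore cannot be told apart from region, dissociation or library in the single-cell data, and no test between ages was possible there.

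The endothelium of brain and retina is sealed by tight junctions and moves little by vesicle, so most macromolecules must enter through receptors. Mfsd2a carries lysophospholipids with omega-3 fatty acids into the brain and is known to hold down caveola-based transcytosis there. Cav1 and Cav2 are the caveolins, the membrane proteins of caveolae. Tfrc is the transferrin receptor, Insr the insulin receptor and Lrp8 (also called ApoER2) a receptor for reelin and apolipoprotein E, and all of them take up their ligands through vesicles.

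The peak lists held 19464 to 144197 peaks, and the endothelial lists of adult tissue were shorter (median 36755.5) than those of P6 (69067.5) and E12 (101233). Replicates of 1 organ and age shared 24.3 to 77.8% of their combined regions (median 65.8%, 49 pairs). A region counts as held by a library when a peak of that library overlaps it. The headers name the aligned files in 4 forms that largely follow organ, so where a comparison is between organs the values within 1 form, shared by retina, lung and part of the P6 brain libraries, are given for the regions that passed. Of the 251 regions, 49 were held by a single library, 7 by all 66, and 92 by no endothelial library. Mfsd2a had 37 regions, Cav1 48, Cav2 42, Tfrc 40, Insr 60 and Lrp8 58. Cav2 and Cav1 lie 17.205 kb apart and share 34 regions, so their counts are not independent. Regions are named by the distance of their centre from the gene's start, with minus for upstream.

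Mfsd2a lies at chr4:122946850-122961194 on the minus strand of mm10. Its start region divided the barrier endothelium of brain and retina from that of other organs. In adult endothelium the region over the start (+0.2 kb, chr4:122960024-122961944) was held by 2 of 2 brain and 2 of 2 retina libraries and by 0 of 8 libraries of heart, kidney, liver and lung. At P6 it was held by 3 of 3 brain, 3 of 3 retina and 2 of 2 heart libraries and by none of the 6 kidney, liver and lung libraries. At E12 it was held more widely, by 3 of 3 brain, 3 of 4 heart and 4 of 4 trunk libraries. The adult division was complete and the P6 one was broken by heart alone. The promoter is printed here because this is the one member whose start was without a peak in some endothelia and held in others at both postnatal ages. The 250 bases upstream of the RefSeq start (GRCm38.p6, chr4:122961189-122961438, minus strand) are given 5′ to 3′, with capitals for matches to 2 short motifs.
Mfsd2a: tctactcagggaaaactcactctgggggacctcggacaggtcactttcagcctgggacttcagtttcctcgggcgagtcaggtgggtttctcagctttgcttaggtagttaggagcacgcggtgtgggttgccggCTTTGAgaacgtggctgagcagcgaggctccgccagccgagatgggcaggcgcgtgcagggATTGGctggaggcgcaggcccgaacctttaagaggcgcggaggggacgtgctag
The first capitals are CTTTGA, the core that TCF/LEF factors of the Wnt pathway are known to bind, at bases -115 to -110 before the start. The second mark a CCAAT box read on the other strand, at -54 to -50. CTTTGA on either strand was found in 13.8% of all 32851 mouse RefSeq promoter windows of this length and CCAAT in 33.8%, so neither match sets this promoter apart. Its GC content was 61.6%, against a median of 52.4% over all windows, and it held 17 CpG, against a median of 6.

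Mfsd2a had 3 further regions that differed between groups of endothelium. A region 22.4 kb upstream (chr4:122983299-122983975), outside any gene, was held by 4 of 4 adult barrier libraries and 0 of 8 others, and at P6 by 6 of 6 and 0 of 8. At E12 it was held by 3 of 3 brain, 0 of 4 heart and 3 of 4 trunk libraries. Among inputs it was held by 1 of 3 P6 brain libraries and the E12 brain library only. The authors' fold of the peak over local background ran from 2.61 to 4.64 in the 16 endothelial libraries that held it. A region 20.7 kb upstream (chr4:122981481-122982327) was held by 21 endothelial libraries and by no input library. It was held by 0 of 12 adult, 10 of 14 P6 and 11 of 11 E12 endothelial libraries, and at P6 by 6 of 6 barrier and 4 of 8 other libraries. A region 16.7 kb downstream of the start, past the gene's end (chr4:122944068-122944937), was held by 5 of 6 P6 barrier libraries and 0 of 8 others, and by 10 of 11 E12 libraries. The P6 barrier library without it was P6 brain endothelial 1, whose list of 27160 peaks was the shortest of its age. Of all 66 libraries 24 held this region, so inputs or adult endothelial libraries held it too.

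**Figure D1:**
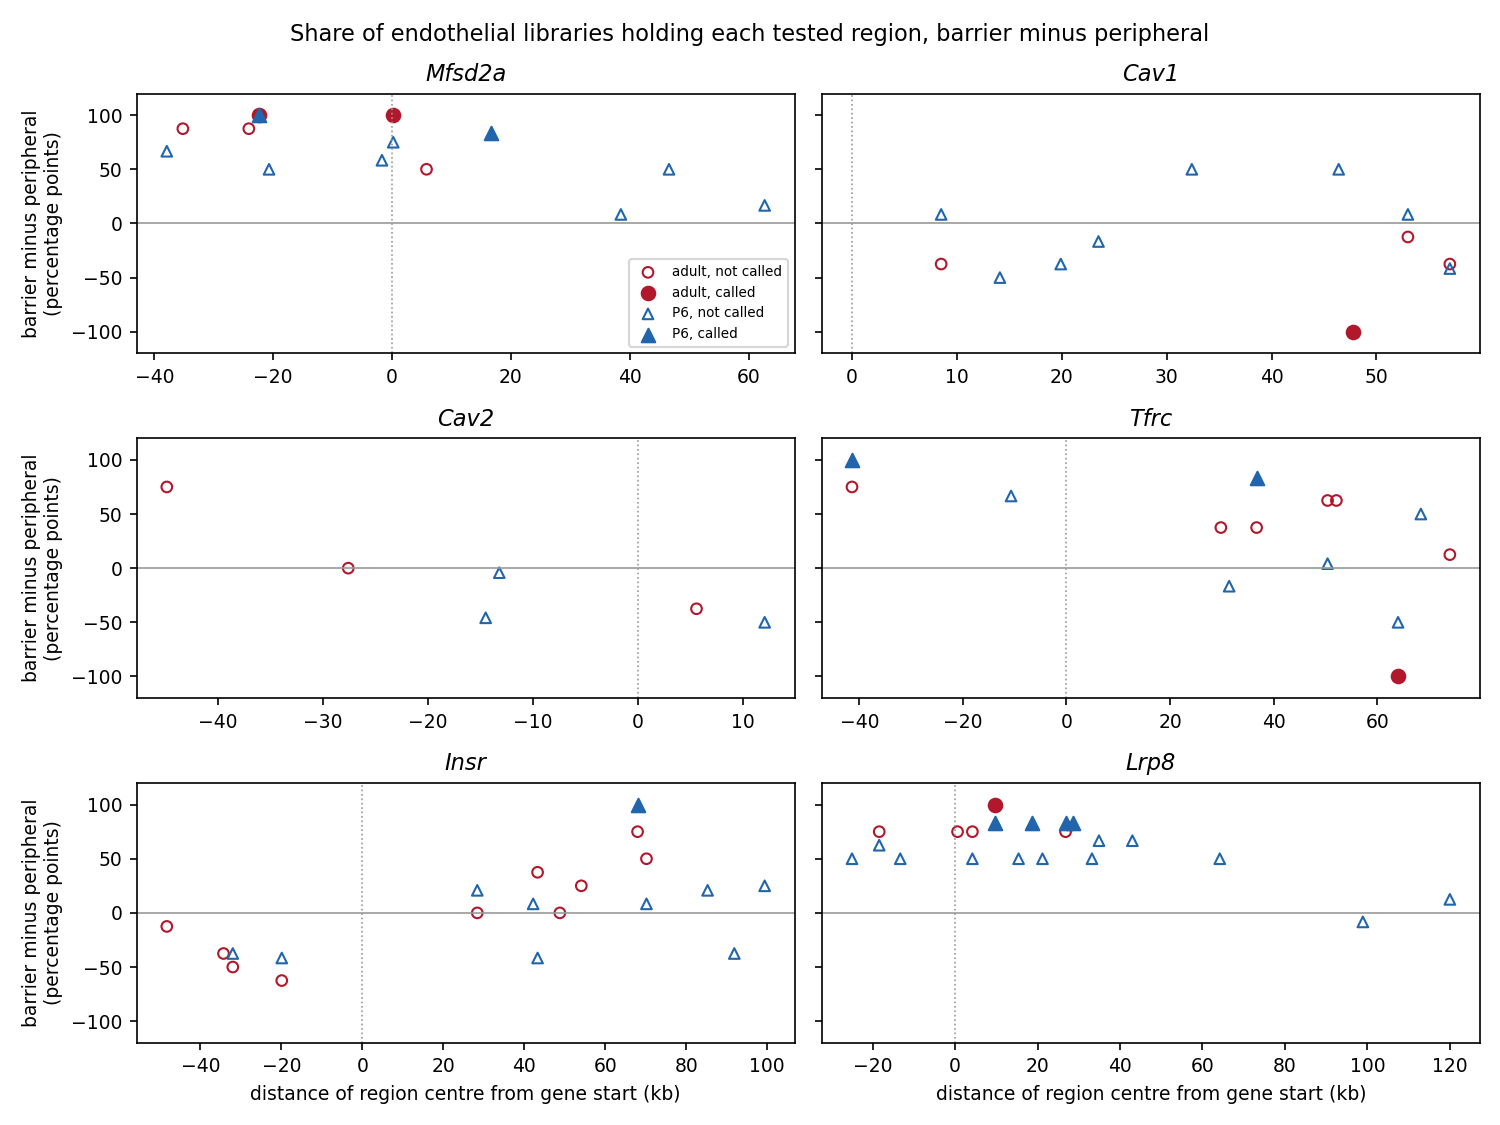
Share of endothelial libraries that held each tested region in brain and retina minus the share in the other organs, in percentage points, by distance of the region's centre from the gene start in kb. Filled symbols passed the test (5 in the adult, circles; 9 at P6, triangles); the highest points are regions held by every barrier library and no other, and the 2 lowest, at Cav1 and Tfrc, are the reverse.

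For adult endothelium, 34 regions at the 6 genes could be tested between barrier (brain and retina, 4 libraries) and other organs (8), and 5 passed Fisher's exact test at a Benjamini-Hochberg adjusted p below 0.05 over all 28792 regions tested. Of all tested regions, 4.81% were called higher in barrier endothelium and 1.24% lower. At the 6 genes 3 of 34 were higher, the Mfsd2a start, Mfsd2a -22.4 kb and Lrp8 +9.6 kb, and 2 were lower, Cav1 +47.8 kb and Tfrc +64.0 kb. Each had the complete division that 4 against 8 libraries allow, with p = 0.00202 and adjusted p = 0.0334 by the 2-sided exact test, the smallest values this design can give. Within 1 form of aligned file, which leaves 2 retina and 2 lung libraries, the Mfsd2a start and the -22.4 kb region were each held by 2 of 2 and 0 of 2. The labels do not say whether replicates are separate animals, so p-values measure only the spread between these libraries. Libraries are nested within organs, and the test counted each library, not each organ, as a unit. At either age the p-values therefore do not measure the spread between organs. The count fell from 5 to 0 when any 1 of adult brain endothelial 1 and 2 and adult retina endothelial 1 and 2 was left out. The barrier lists held 38465 to 45276 peaks and the others 19464 to 47334, and with every list held to its 19000 strongest peaks 1 member region passed in the adult, which was lower in barrier endothelium, so that none of the 3 higher calls held. At P6, 2 passed with equal lists, both higher.

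At P6, 9 of 53 regions at the 6 genes were higher in barrier endothelium (6 against 8 libraries) and none was lower. Of all 79189 regions tested at this age, 4.88% were higher and 1.15% lower. They were 2 at Mfsd2a (-22.4 kb and +16.7 kb), 2 at Tfrc, 1 at Insr and 4 at Lrp8. The regions held by 6 of 6 and 0 of 8 libraries had adjusted p = 0.0192 and those held by 5 of 6 and 0 of 8 had adjusted p = 0.0497, both by the exact test. The Mfsd2a start did not pass at P6 (6 of 6 against 2 of 8, adjusted exact p = 0.098), where the 2 libraries outside the barrier were those of heart. Within the single form, Mfsd2a -22.4 kb was held by 5 of 5 barrier and 0 of 2 lung libraries, and so were Tfrc -41.4 kb and Insr +68.0 kb. The other 6 called regions were each held there by 4 of 5 and 0 of 2. Leaving out P6 brain endothelial 1 raised the count from 9 to 13. It fell to 3 without any 1 of the other 13 libraries. Apart from P6 brain endothelial 1 (27160 peaks), every barrier list (79903 to 92863) was longer than every list of the other organs (43882 to 76326). Division by list length was then the same as division by barrier. At E12, brain (3) was set against heart and trunk (8). None of 45 regions passed, 2 had an unadjusted exact p below 0.05, and none of all 68159 regions passed (0%). Tfrc +24.9 kb (chr16:32633083-32634425) was held by 3 of 3 brain and 0 of 8 other libraries, as were 4.35% of all regions, with 0.126% held by the other 8 libraries alone. A complete division gives the smallest p of 3 against 8 libraries, 0.00606, with adjusted p = 0.135 by the exact test, so no region could pass at E12.

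Input nuclei hold the chromatin of all cell types of the tissue, endothelium included. The start region was held by 23 of 29 inputs, also in organs whose endothelium lacked it: 2 of 2 adult kidney and 1 of 2 adult liver inputs, and 3 of 3 P6 kidney and 3 of 3 P6 lung inputs. The -20.7 kb region was held by 10 of 14 P6 endothelial and 0 of 16 P6 input libraries, and this difference passed the organ-stratified exact test (adjusted p = 0.0129). The opposite was seen 44.3 kb upstream (chr4:123004936-123006051), which 1 of 14 P6 endothelial and 11 of 16 P6 input libraries held (adjusted exact p = 0.03). Between ages, the -20.7 kb region was lower in adult than in P6 endothelium (0 of 12 against 10 of 14 libraries, adjusted exact p = 0.0196).

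In the single-cell libraries, endothelial barcodes numbered 5644, 6347, 3786, 4778 and 3154 from the youngest age to the oldest. The endothelial genes Cldn5, Flt1 and Tek, which the rule did not use, were each above 50 CPM (transcripts per 1000000 counted) at each age. Levels below are pooled CPM with exact Poisson 95% intervals. The intervals and those of shares cover counting error only. Barcodes with none of the 6 pan-endothelial genes give the background, and are 1118, 554, 51, 130 and 176 in the same order. Their median depth was 1769, 6496.5, 5186, 1247 and 2463.5 transcripts, against 7158.5, 10469, 9017, 8468 and 4896 in endothelial barcodes.

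Mfsd2a transcripts were nearly absent at E9.5 and highest at P8. The E9.5 library held 0.197 CPM (9 transcripts; interval 0.0900 to 0.373) and the E12.5 library 112 (110 to 115). Levels were 500 by E16.5 (493 to 507), 799 in P8 cortex (792 to 806) and 395 in adult cortex (387 to 403). No 2 intervals overlap. The E9.5 level was below that of the barcodes with none of the pan-endothelial genes (0.300 CPM) and is not distinct from background. It was 0.353 CPM as a mean over barcodes. Without barcodes that hold other cell types' markers it was 0, but this leaves 61 barcodes, too few to show so low a level. The later background levels were 5.96, 21.3, 66.3 and 48.3 CPM, each far below the endothelial level. The share of barcodes with at least 1 Mfsd2a transcript was 0.159, 31.7, 79.7, 93.8 and 78.9% in order of age, against 0.0894, 3.97, 11.8, 16.9 and 11.9% in the background barcodes. After thinning each barcode to 2000 transcripts, which left out 272, 0, 0, 96 and 172 shallower barcodes, the endothelial shares were 0.0558, 14.9, 54.5, 75.7 and 55.6%, in the same order of ages. The adult level was 3.52-fold that of E12.5 (interval 3.42 to 3.63).

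**Figure D2:**
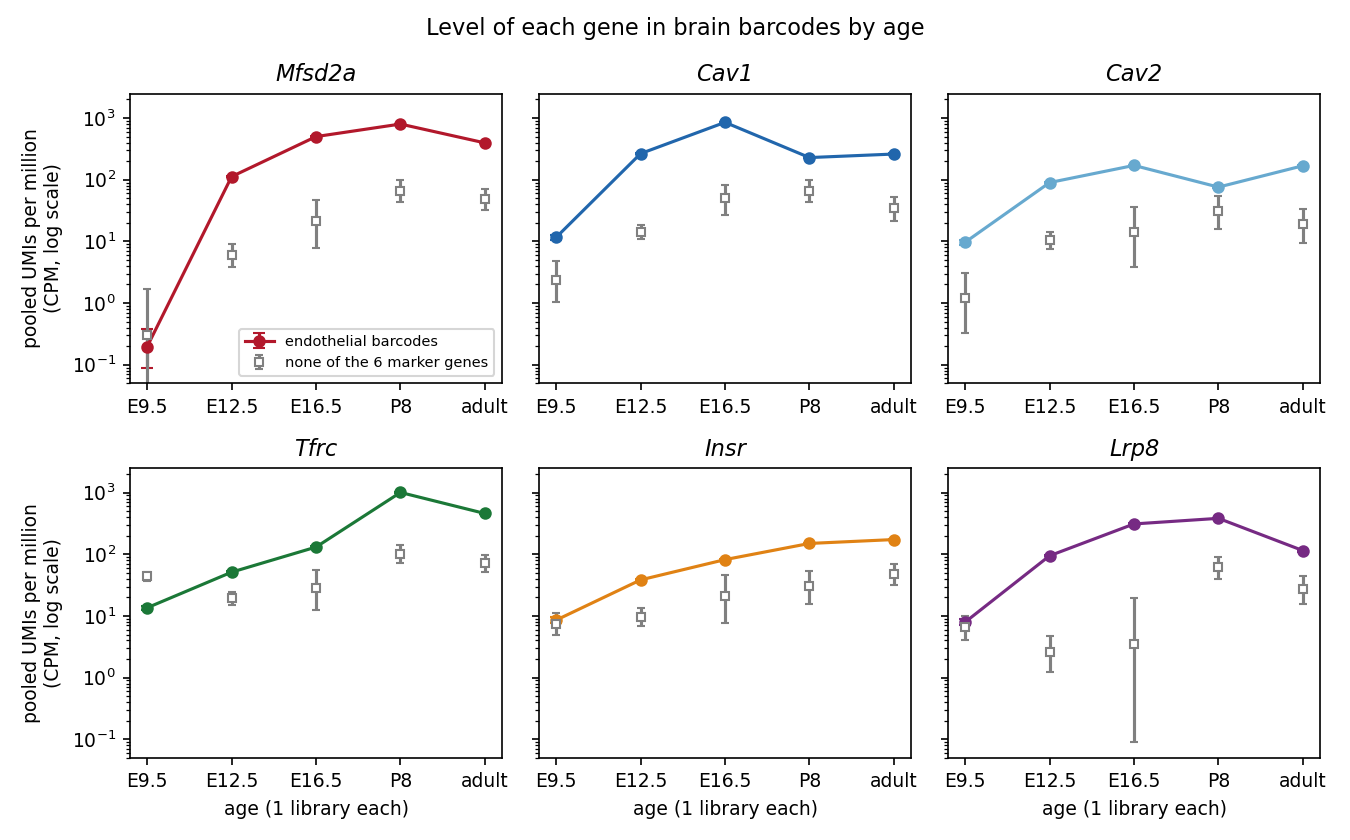
Pooled level of each gene in endothelial barcodes (filled) and in barcodes with none of the 6 pan-endothelial genes (open squares), in CPM on a log axis, by age with 1 library each; bars are 95% Poisson intervals. Mfsd2a, Tfrc and Lrp8 are highest at P8, Cav1 and Cav2 at E16.5 and Insr in the adult, and at E9.5 the open squares lie above the endothelial level for Mfsd2a and Tfrc, and their intervals reach it for Insr and Lrp8.

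The caveolins differed from Mfsd2a at both levels. Cav2 (chr6:17281185-17289130) and Cav1 (chr6:17306335-17341328) lie side by side on the plus strand. The start region of Cav2 was held by all 66 libraries. That of Cav1 was held by 37 of 37 endothelial libraries and 27 of 29 inputs, and was missing from 1 adult retina input and 1 adult liver input. No organ lacked an open caveolin start in its endothelium. The Cav1 promoter is printed for comparison with that of Mfsd2a (RefSeq, GRCm38.p6, chr6:17306085-17306334, plus strand), with capitals for motif matches.
Cav1: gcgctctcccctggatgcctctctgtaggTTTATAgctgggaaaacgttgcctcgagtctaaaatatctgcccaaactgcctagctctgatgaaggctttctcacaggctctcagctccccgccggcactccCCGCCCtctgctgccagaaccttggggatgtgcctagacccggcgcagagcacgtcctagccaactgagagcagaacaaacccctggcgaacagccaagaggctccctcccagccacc
The first capitals are a match to TATAAA on the other strand at -221 to -216, farther from the start than a TATA box usually is. The second mark a GC box (GGGCGG) on the other strand at -118 to -113. TATAAA was found in 12.4% of all promoter windows and GGGCGG in 32.7%. Neither CTTTGA nor CCAAT was found in this window, which says nothing of the factors themselves. The window held 10 CpG, with an observed over expected ratio of 0.471, against 0.754 at Mfsd2a and a median of 0.374 over all windows. RefSeq has another Cav1 start inside the same region. Its window (chr6:17307390-17307639) held 12 CpG at a ratio of 0.588, and no motif match.

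Away from the starts, 1 caveolin region divided the adult endothelia in the direction opposite to Mfsd2a. Cav1 +47.8 kb (chr6:17353413-17354869), which lies past the end of the gene, was held by 0 of 4 adult brain and retina libraries and by 8 of 8 libraries of heart, kidney, liver and lung (adjusted exact p = 0.0334). The division was not seen at P6, where 2 of 3 brain, 3 of 3 retina and 8 of 8 other libraries held it, or at E12, where 3 of 3 brain, 3 of 4 heart and 4 of 4 trunk libraries held it. Within 1 form of aligned file it was held by 0 of 2 adult retina and 2 of 2 adult lung libraries. At P6 it was also more often held by endothelial than by input libraries (13 of 14 against 6 of 16, adjusted exact p = 0.0285). Where it was held, the authors' fold ran from 2.82 to 6.04.

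Inside the genes, 2 further caveolin regions were commoner in P6 endothelium than in input: Cav2 +5.6 kb, inside Cav2 (13 of 14 against 4 of 16, adjusted exact p = 0.0146), and a region inside Cav1 (chr6:17316146-17317480; 12 of 14 against 5 of 16, adjusted exact p = 0.0246). The region inside Cav1 was held by 0 of 12 adult endothelial libraries, so that it was lower in adult than in P6 endothelium (adjusted exact p = 0.0135).

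Cav1 transcripts peaked before birth. The level was 11.6 CPM in the youngest library, 265 at E12.5 and 852 by E16.5, then 229 in P8 and 261 in adult cortex, and the fall from E16.5 to P8 was 3.73-fold. Adult and E12.5 levels were nearly the same, with a ratio of 0.984 (interval 0.956 to 1.01). The share of barcodes with a Cav1 transcript was 98.7% at E16.5, and 74.0% at P8 and 62.2% in the adult. In background barcodes it was 21.6, 10 and 7.95% at these ages. Cav2 ran along a like course, with 9.68, 89.9, 170, 75.8 and 168 CPM in order of age. Adult Cav2 was back at its E16.5 level, with overlapping intervals, and Cav1 was not. Background barcodes held 2.40, 14.3, 49.7, 66.3 and 34.5 CPM of Cav1. The endothelial level stood 3.45 times above the background at P8, the narrowest gap of the 5 ages.

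Markers of cells that also make caveolae moved with age in the endothelial barcodes. The summed level of 6 pericyte markers rose from 5.42 CPM at E9.5 to 1358 in the adult, with none at 0, and that of 5 smooth muscle markers was 162, 13.8, 3.95, 22.6 and 512 CPM, with Cnn1 at 0 at E16.5. Barcodes with at least 3 pericyte markers and at most 1 pan-endothelial gene held 134 CPM of Cav1 at P8 (88 barcodes) and 127 in the adult (101), and 54.4 and 63.6 CPM of Cav2. Their part in the endothelial levels was not tested.

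Tfrc (chr16:32608896-32632794, plus strand) had a start region held by all 66 libraries, with authors' folds of 4.56 to 8.18 over the 37 endothelial ones. Its promoter is printed as that of the receptor whose start was open everywhere (RefSeq, GRCm38.p6, chr16:32608646-32608895, plus strand), with the CCAAT box at -124 to -120 in capitals.
Tfrc: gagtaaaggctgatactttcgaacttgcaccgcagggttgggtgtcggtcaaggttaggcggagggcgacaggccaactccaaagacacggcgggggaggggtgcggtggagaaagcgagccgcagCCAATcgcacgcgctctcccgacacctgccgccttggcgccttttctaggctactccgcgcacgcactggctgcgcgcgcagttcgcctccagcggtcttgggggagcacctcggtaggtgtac
The window held 25 CpG and a GC content of 64.8%, the highest CpG count among the 5 members with a RefSeq promoter. Another RefSeq start of Tfrc has a window (chr16:32608872-32609121) with 23 CpG, a GC content of 68% and a GC box at -35 to -30. Insr had no entry in the table.

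Around this constant start, 3 Tfrc regions differed between groups. Tfrc -41.4 kb (chr16:32567170-32567887), outside any gene, was held by 6 of 6 P6 barrier libraries and 0 of 8 others (adjusted exact p = 0.0192). It was held by 2 of 2 adult brain, 1 of 2 adult retina and none of the other adult libraries, by 3 of 3 brain and 4 of 4 trunk but 0 of 4 heart libraries at E12, and by 1 input (P6 retina). Tfrc +36.7 kb (chr16:32645179-32645953) was held by 5 of 6 P6 barrier libraries and 0 of 8 others, but also by 14 of 16 P6 inputs. That made it less frequent in endothelial nuclei than in input (5 of 14, adjusted exact p = 0.03). In the adult it was held by 3 of 4 barrier and 3 of 8 other endothelial libraries. At E12, 2 of 3 brain and 4 of 8 heart and trunk endothelial libraries held it. Tfrc +64.0 kb (chr16:32672334-32673499) was held by 0 of 4 adult barrier and 8 of 8 other libraries, and within the single form by 0 of 2 retina and 2 of 2 lung libraries. Both of the last lie at Tnk2, which encodes a kinase, the latter at the Tnk2 promoter. A distance of up to 50 kb does not show which gene a region acts on.

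Tfrc transcripts rose late. The level was 13.6 CPM in the youngest library, 51.3 at E12.5 and 131 by E16.5, then 1007 in P8 and 459 in adult cortex. The rise from E16.5 to P8 was 7.69-fold, the largest of the 6 members over that step, and the adult level was 8.94-fold that of E12.5 (interval 8.62 to 9.27). The share of barcodes with a Tfrc transcript went from 57.4% at E16.5 to 92.8% at P8, and after thinning from 21.1 to 76.4%. In background barcodes the unthinned share was 13.7% at E16.5 and 21.5% at P8. At E9.5 the background barcodes held more Tfrc (44.1 CPM) than the endothelial ones, and 60 barcodes with erythroid markers held 195 CPM, with a transcript in 45% of them. Erythroid cells are known to take up iron through this receptor. Summed erythroid markers in endothelial barcodes were 3137, 14913, 11123, 16089 and 8377 CPM in order of age. At E12.5, erythroid-marker barcodes (164) held 15.9 CPM of Tfrc, below the endothelial level.

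Insr (chr8:3150922-3279649, minus strand) also had its start held by all 66 libraries. The P6 comparison of endothelial with input nuclei called 4 of 28 tested regions at Insr, the same share as the 3 of 21 at Cav1. They were +54.1 kb (14 of 14 against 2 of 16 libraries, adjusted exact p = 0.00934), -48.3 kb (14 of 14 against 6 of 16, 0.0209), -19.9 kb (8 of 14 against 1 of 16, 0.0397) and +19.1 kb (13 of 14 against 6 of 16, 0.0448). The +54.1 kb and +19.1 kb regions (chr8:3225109-3226088 and chr8:3259960-3261146) lie inside Insr. In all, 10 of 116 member regions passed at P6, 8 higher in endothelium and 2 lower, against 3.27% higher and 1.8% lower of all 189015 regions tested. In the adult, +19.1 kb was held by 12 of 12 endothelial and 3 of 10 input libraries. No member region passed there (0 of 60, with 14 at an unadjusted exact p below 0.05), nor did any of all 79537 regions (0%).

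Insr had 1 region that followed the barrier at P6. Insr +68.0 kb (chr8:3211341-3212016), inside the gene, was held by 6 of 6 P6 barrier libraries and 0 of 8 others (adjusted exact p = 0.0192), by 3 of 4 adult barrier and 0 of 8 other adult libraries, and by no E12 endothelial library. Of the inputs, 21 of 29 held it too. Upstream of Insr, 2 regions were lower in adult than in P6 endothelium, -34.3 kb (3 of 12 against 13 of 14, adjusted exact p = 0.0239) and -48.3 kb (4 of 12 against 14 of 14, 0.0231). Together with Mfsd2a -20.7 kb and the region inside Cav1 these made 4 of 75 member regions lower in the adult and none higher, against 7.51% lower and 0.0113% higher of all 105759 regions tested. That share is close to the background. The adult lists were shorter than the P6 ones, and with equal numbers of top peaks or a 50% overlap none of these 4 calls remained, the count being 0.

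Insr transcripts rose at each age sampled, to 8.57, 38.4, 82.0, 150 and 173 CPM. The adult level was 4.51-fold that of E12.5, and 6.95-fold without barcodes that hold other cell types' markers, which leaves 51 at E12.5. The share of barcodes with an Insr transcript was 70.2% at P8 and 60.2% in the adult, and after thinning 28.2 and 30.2%. The order of these ages in the unthinned share thus goes against the CPM. In background barcodes the unthinned share was 7.69% at P8 and 13.6% in the adult. At E9.5 the background barcodes held 7.51 CPM, about as much as the endothelial ones.

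Lrp8 (chr4:107802200-107876840, plus strand) had 4 barrier regions among 16 tested at P6, all inside the gene, beside 2 of 7 at Tfrc and 2 of 9 at Mfsd2a and the 4.88% of all regions. All 4 at Lrp8 were held by 5 of 6 barrier and 0 of 8 peripheral libraries (adjusted exact p = 0.0497), and each call was lost without any 1 of the 13 libraries other than P6 brain endothelial 1. Lrp8 +9.6 kb (chr4:107811047-107812624) was held by 2 of 2 brain and 2 of 2 retina adult libraries and 0 of 8 others. At P6 it was held by 2 of 3 brain and 3 of 3 retina libraries and 0 of 8 others. At E12 it was held by 3 of 3 brain and 2 of 8 heart and trunk endothelial libraries. The authors' fold of this peak was 6.40 to 7.41 in the P6 retina, against 2.53 and 3.96 in the P6 brain libraries and 3.32 to 4.10 in the 4 adult barrier libraries. Inputs that held it were mostly neural: 1 of 2 adult retina, 1 of 3 P6 brain and 3 of 3 P6 retina, with 1 E12 brain and 1 E12 heart library. The regions at +18.7, +26.8 and +28.6 kb were likewise held by 5 of 6 P6 barrier and 0 of 8 other libraries, and the last lies at another Lrp8 start. Among P6 inputs they were held by 11, 6 and 5 of 16 libraries, and +18.7 kb by 5 of 14 endothelial libraries (unadjusted exact p = 0.0183, adjusted p = 0.124). Lrp8os2, an antisense transcript, overlaps the first 2 regions. At E12, Lrp8 +26.8 kb was held by 3 of 3 brain and 3 of 8 heart and trunk endothelial libraries. Within 1 form of aligned file, Lrp8 +9.6 kb was held by 2 of 2 adult retina and 0 of 2 lung libraries, and by 4 of 5 P6 barrier and 0 of 2 lung libraries.

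The Lrp8 start region (+0.6 kb) was held by 58 of 66 libraries. All P6 and E12 endothelial libraries held it. In the adult it was held by 2 of 2 brain and 2 of 2 retina libraries, 1 of 2 kidney and 1 of 2 lung libraries, and neither heart nor liver libraries. Outside the barrier the adult start was thus held by 2 of 8 libraries.

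Lrp8 transcripts, like those of Mfsd2a, were highest at P8. The level was 7.96 CPM in the youngest library, 94.7 at E12.5 and 311 by E16.5, then 383 in P8 and 115 in adult cortex, where it was 3.33-fold lower than at P8 and 1.21-fold that of E12.5. Without barcodes that hold other cell types' markers, which leaves 51 at E12.5, the last ratio was 2.30. At E9.5 the background barcodes held 6.60 CPM. The share of barcodes with a transcript fell from 86.1% at P8 to 46.8% in the adult, and after thinning from 51.7 to 22.4%. In background barcodes the unthinned share was 11.5% at P8 and 4.55% in the adult.

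**Figure D3:**
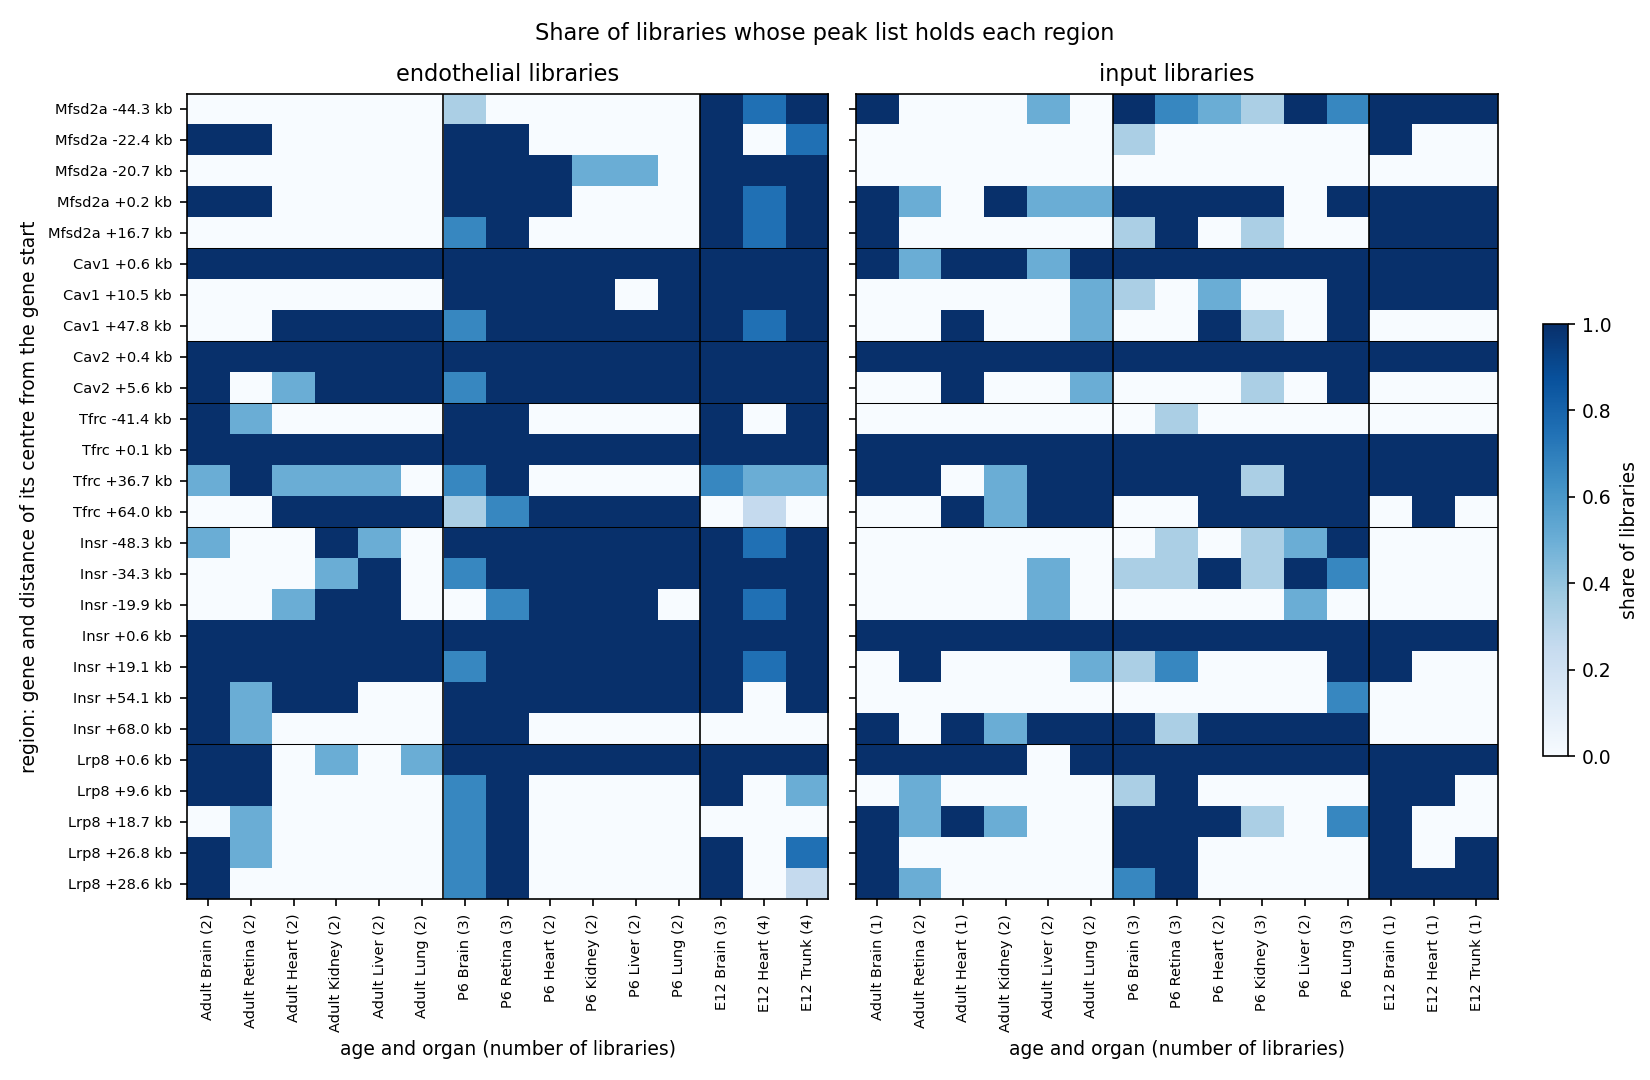
Share of libraries, from 0 to 1, whose peak list held each start region and each region that passed a test, with endothelial libraries on the left, input libraries on the right, 1 column per age and organ (number of libraries in brackets). The start regions of Cav2, Tfrc and Insr are dark throughout, while Mfsd2a +0.2 and -22.4 kb and Lrp8 +9.6 kb are dark in the adult brain and retina columns and empty in the other adult endothelial columns.

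Set side by side over ages, the members fell into different courses. From E12.5 to E16.5, 5 of the 6 rose at least 2-fold (Cav2 rose 1.90-fold), against 8.64% of the 3576 genes with 50 CPM at either age, and none fell 2-fold, against 5.68%. From E16.5 to P8 Tfrc rose past 2-fold (10.4% of genes), Cav1 and Cav2 fell past it (8.48%), and Mfsd2a (1.60), Insr (1.83) and Lrp8 (1.23) rose less. From P8 to adult, Cav2 rose 2.22-fold (14.5% of genes passed 2-fold), and Mfsd2a, Tfrc and Lrp8 fell by 2.02-, 2.20- and 3.33-fold (10.7%). Over the whole span from E12.5 to adult, Mfsd2a, Tfrc and Insr were at least 2-fold higher, against 30.4% of genes, and none of the 6 was 2-fold lower, against 25.4%. Cav2 passed 2-fold as well (2.05) at a mitochondrial share of at most 5%, and Lrp8 (2.30) without barcodes holding other markers. From E9.5 to E12.5 Cav1 rose 22.8-fold and Cav2 9.28-fold, against 20% of genes that rose 2-fold and 9.67% that fell. Without barcodes that hold other cell types' markers, which leaves 61 at E9.5, Cav2 stood there at 4.20 CPM in place of 9.68. In so few barcodes that value rests on very few transcripts, and whether the level differs cannot be told from it. No fold is given for the other 4 members over this step, since their E9.5 levels were not above the background barcodes beyond counting error. When each gene's ages were put in order of level, the intervals of neighbours overlapped for Cav1 between adult and E12.5 and for Cav2 between adult and E16.5, and for no other pair of neighbours. With 1 library per age these are differences between libraries.

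The pan-endothelial barcodes of P8 and adult cortex could be split by markers of arteries and veins, at 2 or more markers of a class and more than of the other. At P8 there were 654 arterial-marker, 2768 venous-marker and 1356 remaining barcodes, and 871, 931 and 1352 in the adult. Of these, 165 arterial-marker and 1082 venous-marker barcodes at P8, and 141 and 402 in the adult, had exactly 2 markers. Depth differed between the classes, with medians of 8505.5, 10755.5 and 5865 transcripts at P8 and 6927, 6375 and 3938 in the adult. The classes come from 1 library per age, so intervals again cover counting only.

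Tfrc was the member that divided the adult classes most. In the adult it stood at 107 CPM in arterial-marker, 716 in venous-marker and 627 in remaining barcodes, so the arterial level was 0.171 times that of the remainder (interval 0.159 to 0.184), and 0.299 (0.283 to 0.316) when classes were not conditioned on the other's markers. At P8 the values were 486, 1050 and 1207 CPM. The adult order of venous-marker and remaining barcodes turned, to a ratio of 0.676, without that condition. Mfsd2a was lowest in arterial-marker barcodes in the adult (272, 386 and 612 CPM), but not at P8 (1093, 685 and 1096), where venous-marker barcodes were lowest and the ratio of arterial to remaining barcodes was 0.998 (interval 0.969 to 1.03). That ratio was 1.23 (1.15 to 1.31) with classes made after thinning and 0.823 (0.800 to 0.846) without the condition on the other class. Lrp8 was lowest in arterial-marker barcodes at both ages (285, 379 and 473 CPM at P8, and 69.3, 126 and 172 in the adult). Insr was lowest in arterial-marker barcodes in the adult (121, 193 and 228 CPM). At P8 it stood at 176, 136 and 194 CPM, and with classes made after thinning the venous over remaining ratio was 0.912 (interval 0.807 to 1.03), which includes 1.

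Cav1 went the other way. It was highest in arterial-marker barcodes at both ages, with 336, 213 and 216 CPM at P8 and 326, 225 and 209 in the adult, or 1.55-fold and 1.56-fold the remainder. Cav2 was 2.14-fold higher in arterial-marker than remaining barcodes at P8 (160 against 74.9 CPM), and 1.12-fold in the adult (179 against 160). The adult interval included 1 with classes made after thinning (0.957 to 1.30) and without the condition on the other class (0.976 to 1.15).

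**Figure D4:**
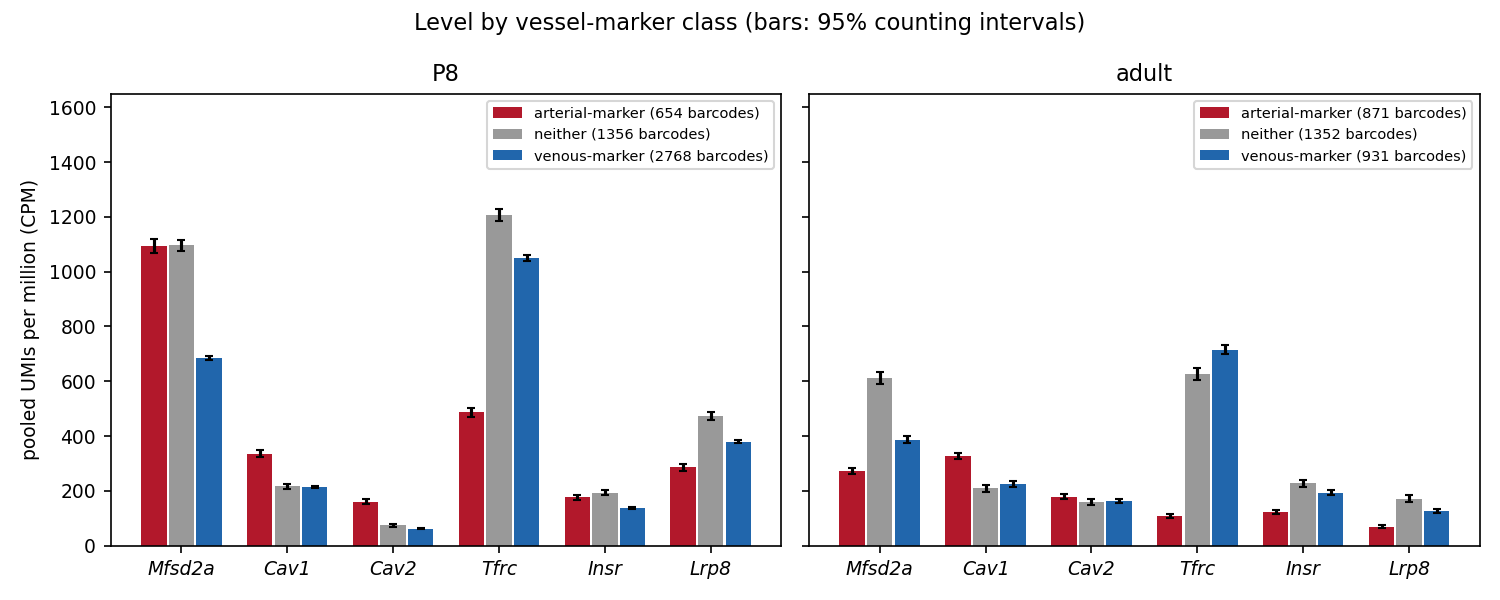
Pooled level of each gene in arterial-marker, remaining and venous-marker barcodes of P8 and adult cortex, in CPM, with 95% counting intervals as bars. Tfrc is lowest in the arterial-marker class at both ages (486 CPM at P8 and 107 in the adult) and Cav1 highest there (336 and 326).

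Barcodes thinned to 2000 transcripts were then split by whether they still held an Mfsd2a transcript. The receptors were higher beside Mfsd2a at all 4 ages where it could be asked. Lrp8 was 4.70-fold (interval 4.17 to 5.30), Tfrc 4.07-fold (3.45 to 4.81) and Insr 1.98-fold (1.59 to 2.46) higher at E12.5, between 948 barcodes with and 5399 without Mfsd2a. At E16.5 the ratios were 1.96, 1.77 and 1.42, at P8 1.62, 1.48 and 1.41, and in the adult 1.68, 1.43 and 1.33. Cav1 was lower beside Mfsd2a at E12.5 (0.611, interval 0.545 to 0.684) and P8 (0.678, 0.620 to 0.743). The ratio was nearer to 1 at E16.5 (0.949, 0.905 to 0.996) and in the adult (0.882, 0.793 to 0.982), with both intervals below 1. The intervals for Cav2 included 1 at every one of the 4 ages.

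Other vessel genes moved in the same split. Slc2a1, the glucose transporter of barrier endothelium, was 2.73-fold higher beside Mfsd2a at E12.5, and 1.57-, 1.28- and 1.10-fold at the 3 later ages. Cldn5, the tight-junction claudin, was 2.19-fold higher at E12.5, 1.27-fold at E16.5 and 1.07-fold in the adult. Plvap, which forms the diaphragms of caveolae and fenestrae, stood at a ratio of 0.881 at E12.5, 0.175 at E16.5 and 0.0268 at P8, and in the adult at 4.91 CPM without and 0 transcripts with Mfsd2a, which allows up to 1.11 CPM. Barcodes with and without a transcript were not otherwise matched for vessel class, and the part of vessel class in these ratios was not tested.

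**Figure D5:**
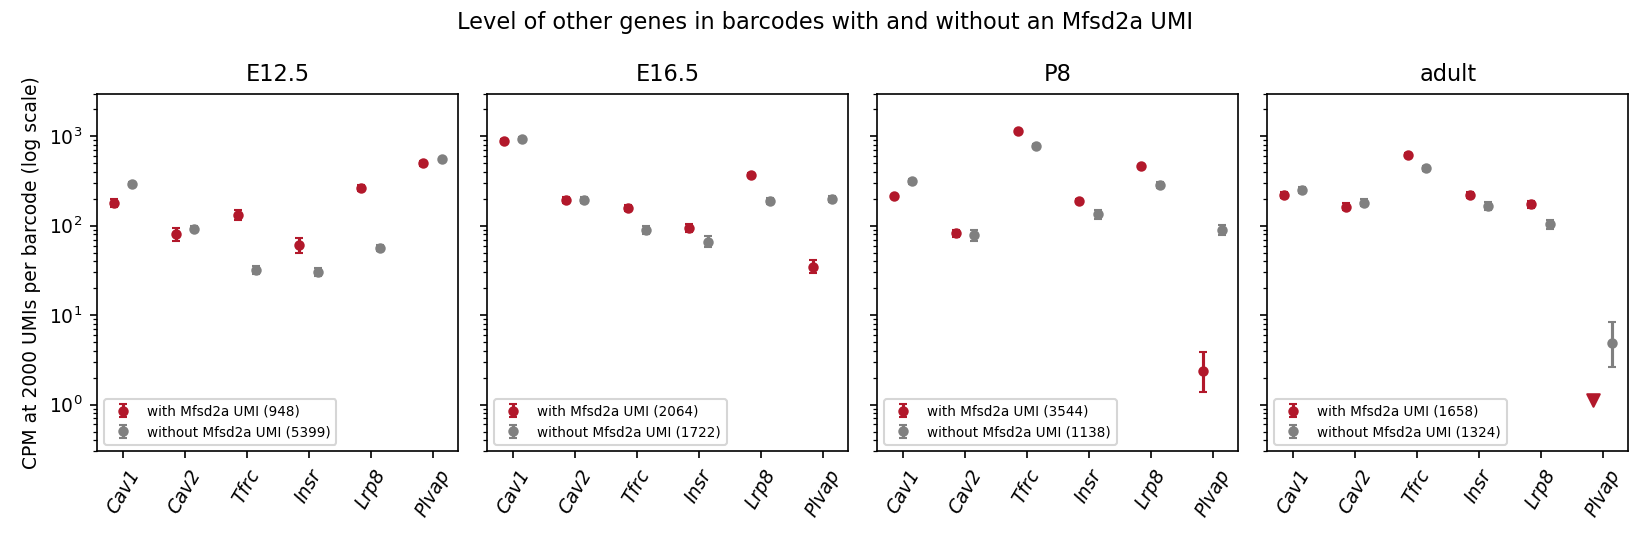
Level of 6 other genes in barcodes with (red) and without (grey) an Mfsd2a transcript after thinning to 2000 transcripts, in CPM on a log axis at 4 ages, with 95% counting intervals; the triangle is the upper limit where no Plvap transcript was seen. Tfrc, Insr and Lrp8 are higher in the red points at each age, and the Plvap points move apart from E12.5 to P8.

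Pearson correlations across the 5 ages were taken on the log2 of CPM plus 10, and not on CPM itself. On that scale Mfsd2a and Lrp8 had a correlation of 0.968, Tfrc and Insr of 0.950 and Cav1 and Cav2 of 0.947. Cav1 and Tfrc had the lowest of any pair, 0.540. E9.5 levels that were not above the background enter these values too. Among 4834 other genes, those most like Mfsd2a included Ech1 (0.998) and Clcn4 (0.997), and those most like Lrp8 were Sema6a (0.999), a semaphorin, Prnp (0.998), the prion protein gene, and Srsf5. The nearest were Ntan1 for Cav1, Scamp1 for Cav2, Ube3c for Tfrc and 2900026A02Rik for Insr, each at 0.996 or 0.998. The points are 5 single libraries that differ in depth and dissociation, and with so few ages many genes reach values of this size.

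Genes of the same routes were read from lists in the adult against E12.5, with 2-fold as the size that counts. Over all genes, 30.4% rose and 25.4% fell by that much, and shares of a list near these are no result about the list. Of the caveola list, 9 of 15 genes had 50 CPM at either age; 5 rose and 1 fell 2-fold, with a median log2 difference of 1.16, against -0.07 over all 4393 genes. The coat genes Cavin1 (108 to 346 CPM) and Cavin2 (70.6 to 808), which shape caveolae with the caveolins, and Ehd2 (61.6 to 169), which sits at the caveola neck, were among those that rose, while Plvap fell from 525 to 2.54 CPM. The coat gene Cavin3 went from 305 to 212 CPM, short of 2-fold. In the same barcodes summed pericyte markers went from 83.8 to 1358 CPM and smooth muscle markers from 13.8 to 512, and their part in the caveola list was not tested. Of the clathrin list 13 of 14 genes had 50 CPM at either age. Of these 4 rose, among them Cltb, a clathrin light chain (77.5 to 244 CPM), and Picalm, an adaptor (75.2 to 275). The 2 that fell were the adaptor subunits Ap2m1 (379 to 129) and Ap2s1 (297 to 90.1). The share that rose is that of all genes.

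Of 18 other receptors and carriers, 9 had 50 CPM at either age, of which 4 rose and 1 fell. Igf1r went from 73.9 to 1045 CPM and Fcgrt, the neonatal Fc receptor, from 33.0 to 444. Bsg, a surface protein of barrier vessels, went from 813 to 9564 CPM, and Trf, which encodes transferrin, fell from 198 to 11.2. Of the insulin list 7 of 11 had 50 CPM at either age. Of these 3 were higher (Igf1r, Pik3r1 and Grb14, an adaptor of the insulin receptor, 10.7 to 114 CPM) and 2 lower (Grb10 and Igfbp3).

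Iron handling had 3 of 11 genes with 50 CPM at either age and 1 of them lower (Ftl1, ferritin light chain, 3441 to 1378 CPM). The reelin and ApoE list had 3 of 8 at that level and 1 higher, Selenop, a ligand of Lrp8 (1048 to 2140 CPM). The list of Mfsd2a relatives had 3 of 10 at that level. Lower were 2, Spns1 (92.7 to 24.6 CPM), a lysosomal lysolipid carrier, and Fabp5 (205 to 5.89), a fatty acid binding protein. The endosome list stayed near the median of all genes (median log2 difference -0.04, 1 of 10 genes with 50 CPM at either age higher). All of these are values of 1 library per age.

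Regions within 50 kb of genes on these lists were read in the barrier comparisons, where a gene counts if 1 or more of its regions passed. In the adult, 14.9% of all genes with a tested region had 1 higher in barrier endothelium and 3.69% had 1 lower. These adult calls, over all regions as at the members, fell to 0% with a 50% overlap, 500 bp tiles, the filter of at least 2 libraries or the replicate block, and the list counts go with them. The insulin and IGF list had 5 of 10 genes with a higher region, Foxo1, Grb10, Grb14, Igf1r and Pik3r1. The caveola list had 3 of 15 higher (Ehd4, Pacsin3 and Src) and 2 of 15 lower (Ehd1 and Plvap), and the clathrin list 2 of 14 higher. Receptors and carriers had 2 of 18 higher, Igf1r and Slc3a2. None of 8 Mfsd2a relatives had a higher region, and Fabp4, a fatty acid binding protein, had a lower one.

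At P6, where 24% of genes had a higher region and 7.19% a lower one, the counts were 1 of 11 for insulin and IGF (Pik3r1), 3 of 8 for reelin and ApoE, 5 of 15 for caveola, 5 of 14 for clathrin and 4 of 18 for receptors and carriers. Plvap and Fabp4 had a lower region at both ages. The counts describe these lists only, and lists of this size vary widely around the share over all genes.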

How the data were processed

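ATAC-seq libraries were used as 66 deposited lists of broad peaks, which the authors called per library with MACS2 2.1.2, without a control library and without pooling, per the file headers. Each peak has the authors' pileup signal, a fold (ratio) over local background, and −log10 p-value and −log10 q-value columns, per the file headers. The submitters' processing notes name mm10, Bowtie2, SAMtools 1.13 and Picard. The 5 deposited single-cell matrices hold raw UMI counts, whole numbers per gene and barcode; the submitters' processing notes name Cell Ranger and Seurat 4.0.4. The E16.5 matrix came without its own gene table and was read in the gene order of the other libraries. No doublet caller was run. The deposited transcript tables of bulk RNA were not used here.

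Peaks of all libraries were merged into 514065 regions, and a library holds a region when any of its peaks overlaps it. Regions held by at least 3 and missing from at least 3 libraries were tested with 2-sided exact tests, Fisher's between organs and an organ-stratified conditional test for endothelial against input and adult against P6, with Benjamini-Hochberg adjustment over all regions tested and a threshold of 0.05. Near-complete changes, in which single libraries could depart from the division, were simulated in 200 of 20000 regions. They were called for 0% in adult barrier against other organs, 71.5% at P6 and 0% at E12. For endothelial against input 86.5% and 100% were called (adult, P6), and 99.5% between ages. The simulated sets differ from real data in how many regions change. UMI counts were pooled to CPM over endothelial barcodes. Genes are named when they are members, are the 3 most like a member over ages, or are in a pathway list and changed 2-fold; some results that the rule covers are not reported here. The members and lists were chosen with earlier results of these data known. Barcodes shared between libraries numbered 0 to 50 per pair, and leaving them out kept every level within its interval. Alternatives changed 1 choice at a time. Pairs with the same replicate number did not all correlate above 0.1, so the numbers were not taken as pairs. Tools were Python 3.11.15, numpy 2.4.6, pandas 2.3.3 and scipy 1.17.1.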

Additional observations from a re-analysis of the deposited data

Results flagged for a closer look

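Among the 4 E12 heart endothelial libraries, replicate 3 held 23 of the 251 regions at the 6 genes, far below the others, with a gap of 0.875 of the group's range. Its whole list was short, with 39096 peaks against 101219 to 120456 in the other E12 heart endothelial lists. Relative to list length, its count was close to that of replicate 4 and below those of replicates 1 and 2. The part of list length in the flag was not tested. The low count was 1 flag among 6 combinations of a library group and a measure that were tested. The combinations are not independent, and chance nominally flags about 1 in 20. No member region passed at E12 with or without replicate 3.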

How the results depend on the processing

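The counts of member regions that passed depended on the processing. Adult barrier against other organs gave 5 regions, and 1 with peaks of −log10 q of at least 5, 1 with equal numbers of top peaks, 0 when a peak had to cover 50% of the region, 0 with 500 bp tiles, 0 when regions held by and missing from at least 2 libraries were tested, and 2 within 10 kb. P6 barrier against other organs gave 9, and 2 with the stricter peaks, 2 with equal lists, 1 under the overlap rule, 2 with tiles, 3 when regions held by and missing from at least 2 libraries were tested, and 6 within 10 kb. P6 endothelial against input gave 10, and 2 under the overlap rule, 6 with tiles and 4 within 10 kb. Adult against P6 gave 4, and 0 with equal lists, 0 under the overlap rule and 1 within 10 kb. With the replicate number as a block each of these 4 counts was 0. Leaving out 1 library gave 0 to 6 in the adult and 3 to 13 at P6 for barrier against other organs, 6 to 11 for P6 endothelial against input (6 without kidney endothelial 1, lung endothelial 1 or lung endothelial 2), and 4 to 6 between ages. The counts of 0 at E12 and for adult endothelial against input stayed at 0 under every alternative run. No single region reversed.

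The adult over E12.5 ratio of Mfsd2a was 3.68 with at least 2 and 3.41 with at least 4 of the 6 pan-endothelial genes, 4.20 without barcodes holding other cell types' markers, 4.32 as a mean over barcodes and 4.18 after thinning. That of Cav1 was 1.03 with 2 genes, 1.11 at 5% mitochondrial share, 1.16 without other markers, 0.834 as a mean and 0.839 after thinning. For Cav2 it was 2.05 at 5%, 1.63 without other markers and 1.74 as a mean. For Tfrc it was 7.57, 11.5 and 11.5, and 11.5 after thinning; for Insr 4.81, 6.95 and 5.68, and 5.65 after thinning. For Lrp8 it was 1.27 with 2 genes, 2.30 without other markers, 1.68 as a mean and 1.63 after thinning. The marker setting kept only 51 barcodes at E12.5. Without the condition on the other vessel class, the venous over remaining ratio became 1.05 for Cav2 at P8 and 0.676 for Tfrc in the adult, both on the other side of 1. The causes were not tested. With classes made after thinning, 7 of 24 vessel ratios stayed within their intervals and 17 moved, none to the other side of 1 where the main interval excluded it. At E9.5 the levels of Mfsd2a and Tfrc were below those of background barcodes, and those of Insr and Lrp8 lay within the background intervals.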
